A study of Mus musculus with 72 samples.

Results

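The brains of mice heterozygous for a targeted Klotho allele (KlHET) were compared with the brains of wild-type (WT) mice, both taken from untreated control animals. The comparison held 18 of the 72 RNA-seq libraries of the series: 12 KlHET control brains and 6 WT control brains, chosen by the genotype, treatment and tissue that the labels give. A legend of the study counts fewer KlHET control mice than the labels do. Every labelled library was used, and which mouse the legend leaves out is not known. The study asked how neuromuscular electrical stimulation of the hind legs (NMES) acts on muscle and brain in the presence or partial absence of Klotho, and the comparison here is its genotype contrast in mice that received no stimulation. The 2-month-old control mice of both genotypes received 15 min of 2.5% isoflurane on each day on which the other mice were stimulated, and tissue was taken after perfusion, 24 h after the last session. The KlHET mice came from the strain B6;129S5-Kltm1Lex/Mmucd, a mixed background, and both genotypes were bred by the investigators. All KlHET animal codes begin with J and all WT codes with A, so the genotype cannot be told apart from the strain background or from anything else that goes with the code letters, whose meaning the labels do not give. For a second look at the same contrast, 12 KlHET and 6 WT brains from NMES mice (5 sessions at 9 mA) and the muscle of the same 18 control mice were used.

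Klotho is a single-pass membrane protein that binds fibroblast growth factor receptors and makes them responsive to the hormone FGF23, which lowers phosphate reabsorption and vitamin D activation in the kidney. Its outer part is also shed and circulates. In the brain the choroid plexus, the epithelium that secretes cerebrospinal fluid, is the richest source of Kl transcript, and neurons carry less. Mice without Klotho age early, whereas heterozygous mice keep an intact copy of the gene.

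The values are CPM, the reads of a gene scaled to a common library total. The WT control brains held 18.5 to 23.8 M reads (median 22.6 M) and the KlHET control brains 17.1 to 27.3 M (median 18.6 M). WT control replicate 1 had the lowest share of mitochondrially encoded reads, 1.67%, against 3.24 to 5.65% in the other 17 control libraries. KlHET control replicate 7 stood apart in its regional markers. Its mean log2 score over 16 thalamus and midbrain genes was 2.90, against at most 0.086 in the other 17 control libraries, and its score over 25 excitatory cortical neuron genes was -1.13, against -0.174 or more in the others. KlHET control replicates 7 and 9 had the highest choroid plexus scores (2.405 and 1.714). The call counts and the medians of the region lists are given with and without WT replicate 1, and with and without KlHET replicates 7 and 9. The Kl difference is given with and without KlHET replicates 7 and 9. Both groups mixed the sexes, with Xist above the Y-linked genes in 3 of 6 WT and 7 of 12 KlHET control brains. The tissue is called brain in the labels and prefrontal cortex in the methods of the study, and the summed excitatory cortical markers were 6761 to 8671 CPM in WT and 3027 to 8424 CPM in KlHET, lowest in replicate 7.

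The targeted gene itself did not separate the groups. Kl (Entrez 16591, chromosome 5, 150952607 to 150993817 in GRCm38, the mm10 build) ranged from 1.31 to 6.53 CPM in WT control brain, with a median of 3.25, and from 1.93 to 31.1 CPM in KlHET control brain, with a median of 2.85. In 9 of 12 KlHET libraries Kl lay inside the WT range, and the 3 above it were replicates 5, 7 and 9. The difference in mean log2(scaled CPM + 0.5) was 0.38 (exact permutation test over all 18564 assignments, 2-sided, p = 0.496). Replicates 7 and 9, with Kl at 31.1 and 16.7 CPM, also had the highest Ttr, the transcript of the choroid plexus protein transthyretin, at 1822 and 765 CPM, whereas Ttr in WT control brain was 0.30 to 64.7 CPM. Summed over the 24 choroid plexus genes tested, the level was 347.7 to 457 CPM in WT and 347.1 to 3166 CPM in KlHET. Without replicates 7 and 9 the Kl difference was -0.074 (exact permutation test, p = 0.805), and it was -0.27 when the fit also held the score of the choroid plexus list (limma adjusted p = 0.733). A total of 29 to 685 reads per library fell on Kl. The table does not separate reads from the targeted allele, so Kl here is no check of the genotype labels. In these tissue samples a different number of choroid plexus cells cannot be told apart from a different amount of RNA per cell.

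Of 15400 genes tested, 11 passed an adjusted p of 0.05 in limma with Benjamini-Hochberg adjustment (0.0714% of genes), 8 higher and 3 lower in KlHET (0.0519% and 0.0195%). The higher genes were Cfap54, Tmem181b-ps, A930033H14Rik, Dynlt1b, Gabra2, Atp10d, Tmem181c-ps and Bend4, and the lower genes were Tmem267, Ptp4a3 and Hmgb1. An unadjusted p below 0.05 was reached by 1609 genes (10.4%), 738 higher (4.79%) and 871 lower (5.66%). For 3 genes (0.0195%) the groups did not overlap on the scaled values. Atp10d was higher in every KlHET library (1 gene, 0.00649%), and Tmem267 and Ptp4a3 were lower in every KlHET library (2 genes, 0.013%). The number of calls rested on single libraries. It was 4 without WT control replicate 6, 7 without WT replicate 2, 3 or 5, and 19 without KlHET replicate 1. Fitted on the control groups alone, 3 genes passed. Without KlHET replicates 7 and 9 the count was 10, and it was 56 with DESeq2 and 67 with voom weights on the recovered reads, each of which kept all 11 genes. Tmem267, Tmem181b-ps, Dynlt1b and Gabra2 passed with each of the 18 libraries left out in turn.

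**Figure D1:**
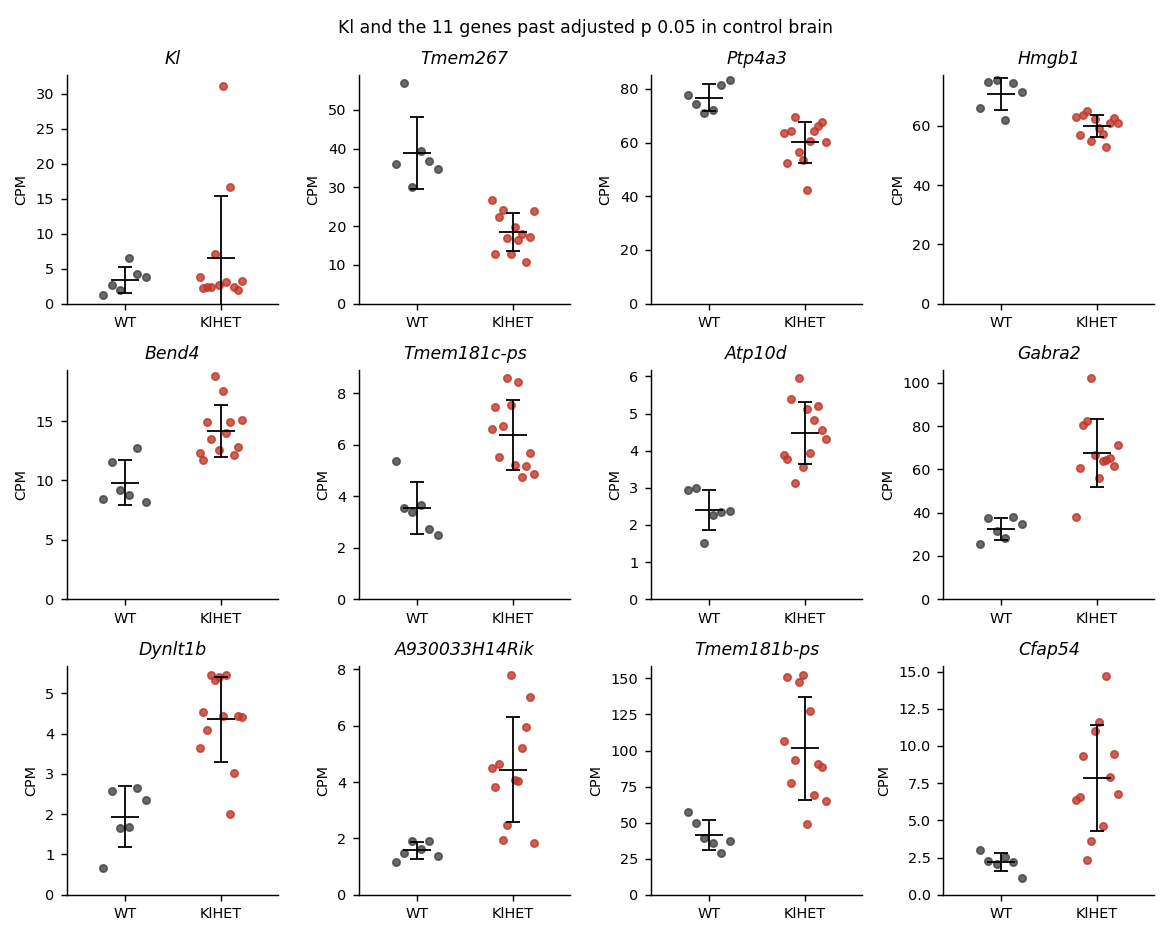
CPM of Kl and of the 11 called genes in each control brain library, WT (6 points, grey) and KlHET (12 points, red), with each vertical axis starting at 0. The horizontal bars are the means and the error bars the SD (for Kl in KlHET the lower bar runs below 0 and is not drawn in full). Tmem267 lay between 10.8 and 26.7 CPM in KlHET and between 30.1 and 56.8 CPM in WT, while Kl overlapped.

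Of the called genes, 3 lay close together on chromosome 17, in a block of Dynlt1 and Tmem181 gene copies. Tmem181c-ps lay 159.1 kb from Tmem181b-ps, with Dynlt1c between them. Dynlt1b (Entrez 21648, 6429530 to 6440500) encodes a light chain of cytoplasmic dynein, the motor that carries cargo towards the minus ends of microtubules. Tmem181b-ps (Entrez 547127, 6439002 to 6450994) and Tmem181c-ps (Entrez 100040525, 6610103 to 6620925) are annotated pseudogene copies of the transmembrane protein gene Tmem181a. The coding sequences of Dynlt1a, Dynlt1b, Dynlt1c and Dynlt1f are 339 bases long in GENCODE M21 and identical but for 1 base. Their first 30 coding bases, joined across the intron, are shown because they hold that base, and the capital marks it.
Dynlt1b: atggaagacttccaggcctcAgaggagact
Dynlt1a: atggaagacttccaggcctcCgaggagact
Dynlt1c: atggaagacttccaggcctcCgaggagact
Dynlt1f: atggaagacttccaggcctcCgaggagact
Counted from 1 at the start codon, the difference from Dynlt1b is A21C in each of the other copies. Of the stretches of 150 bases, the length of a read, in the longest Dynlt1b transcript, 80.5% also occur in another gene. The share was 31.7% for Tmem181c-ps and 19.6% for Tmem181b-ps, so how reads were split among the copies is uncertain, and Dynlt1b overlaps Tmem181b-ps by position.

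Dynlt1b was 0.676 to 2.65 CPM in WT control brain (median 2.02) and 2.00 to 5.45 CPM in KlHET control brain (median 4.44). Every KlHET library except replicate 9 was above the WT range. On the log2 scale the difference was 1.01 ± 0.17 (SE), or 2.01-fold on the scale of scaled CPM + 0.5 (limma adjusted p = 0.00466).

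Tmem181b-ps was 28.9 to 57.4 CPM in WT (median 38.2) and 49.3 to 153 CPM in KlHET (median 91.8), with KlHET replicate 7 alone inside the WT range. It rose by 1.21 ± 0.20 on the log2 scale (limma adjusted p = 0.00466).

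Tmem181c-ps was 2.49 to 5.36 CPM in WT (median 3.47) and 4.73 to 8.59 CPM in KlHET (median 6.15), with 8 of 12 KlHET libraries above the WT range. Its log2 difference was 0.75 ± 0.15 (limma adjusted p = 0.0224).

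Sums over the named copies do not depend on how reads were split among those copies, but reads can still have gone to Dynlt1-ps1, which shares stretches with Dynlt1b and is not in the sum, or between the Dynlt1 and Tmem181 copies that overlap. Dynlt1a, Dynlt1b, Dynlt1c and Dynlt1f together were 5.88 ± 1.90 CPM in WT (SD, n = 6) and 9.70 ± 1.84 CPM in KlHET (SD, n = 12). Tmem181a, Tmem181b-ps and Tmem181c-ps together were 75.4 ± 14.7 CPM in WT and 145.5 ± 41.2 CPM in KlHET. The ranges of both sums overlapped between the groups, and the sums carry no test. Within 1 Mb of Tmem181b-ps, 6 of 20 tested neighbours had an unadjusted p below 0.05, beside 10.4% of all genes. Besides the 2 called ones these were Tmem181a (log2 difference 0.26), Dynlt1f (0.39), Dynlt1a (0.30) and Ezr (-0.15), which did not pass the adjusted test.

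Tmem267 on chromosome 13 (Entrez 633640, 119488086 to 119610459), a membrane protein gene whose role is little known, had the smallest p of all genes. Its level was 30.1 to 56.8 CPM in WT control brain (median 36.4) and 10.8 to 26.7 CPM in KlHET control brain (median 17.5). The highest KlHET library lay below the lowest WT library, at 26.7 against 30.1 CPM. Tmem267 fell by 1.103 on the log2 scale (SE 0.15), to a level 0.465 times that of WT (limma adjusted p = 0.000281). WT replicate 2 was the highest of the WT libraries at 56.8 CPM, and without it Tmem267 still passed.

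Of 13 tested neighbours within 1 Mb of Tmem267, 7 had an unadjusted p below 0.05, beside 10.4% of all genes. Of these 7, 6 were lower and 1 higher in KlHET, and none passed the adjusted test. The higher neighbour was Nnt (119335527 to 119409257), the mitochondrial transhydrogenase that makes NADPH from NADH, a gene known for a deletion of part of its exons in C57BL/6J mice. Nnt was 15.9 to 23.1 CPM in WT (median 19.97) and 19.3 to 28.6 CPM in KlHET (median 26.7), and every KlHET library except replicate 1 was above the WT range (log2 difference 0.37 ± 0.09, limma adjusted p = 0.143). KlHET replicate 1 lay inside or above the WT range for Nnt, Zfp131 and 4833420G17Rik. With each of the 18 control libraries left out in turn, Nnt and Zfp131 each passed in 1 of 18 fits and Nim1k in 2 of 18.

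Next to Tmem267 on the other side lay Ccl28, a chemokine of mucosal surfaces, at 3.11 to 4.84 CPM in WT and 0.570 to 3.22 CPM in KlHET (limma adjusted p = 0.194). The zinc finger gene Zfp131 was 33.8 to 41.0 CPM in WT and 20.6 to 37.5 CPM in KlHET (log2 difference -0.43, limma adjusted p = 0.129), with replicates 1 and 4 alone inside the WT range. The transcript 4833420G17Rik was 21.0 to 27.1 CPM in WT and 6.44 to 15.4 CPM in 10 KlHET libraries, whereas replicates 1 and 4 were at 27.8 and 26.2 CPM. The remaining lower neighbours were Nim1k, an AMPK-related kinase gene (log2 difference -0.35), 3110070M22Rik (-0.53) and Paip1, whose product binds poly(A)-binding protein (-0.10). 3110070M22Rik overlaps Tmem267, and since the sources used here do not state whether strand was used in counting, reads in the overlap cannot be told apart.

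Chromosome 5, which carries Kl, held 4 of the 11 called genes and 941 of the 15281 tested genes with a position. Of these, 3 lay 78.7 to 83.6 Mb from Kl. Gabra2 (Entrez 14395, 70958392 to 71095849) encodes the alpha-2 subunit of the GABA-A receptor, the chloride channel of fast inhibition, and is known to differ among C57BL/6 lines through an intronic deletion in C57BL/6J. It was 25.5 to 38.0 CPM in WT (median 33.2) and 38.0 to 102 CPM in KlHET (median 64.9). KlHET replicate 1 was the lowest, 37.98 against 37.96 CPM in the highest WT library, and the other 11 were at 55.9 CPM or more. Gabra2 rose by 0.99 ± 0.17 on the log2 scale (limma adjusted p = 0.00466).

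Atp10d (Entrez 231287, 72203329 to 72298771), a phospholipid-transporting P4-ATPase, was 1.52 to 2.996 CPM in WT (median 2.36) and 3.14 to 5.95 CPM in KlHET (median 4.44). The groups did not overlap, and the log2 difference was 0.75 ± 0.14 (limma adjusted p = 0.019). Bend4 (Entrez 666938, 67392147 to 67428128), which encodes a BEN domain protein, was 8.16 to 12.8 CPM in WT (median 8.98) and 11.7 to 18.7 CPM in KlHET (median 13.7). Its log2 difference was 0.48 ± 0.10 (limma adjusted p = 0.0224), and 0.45 without KlHET replicates 7 and 9 (limma adjusted p = 0.0647). None of the neighbours within 1 Mb of these genes (3 of Gabra2, 11 of Atp10d, 7 of Bend4) had an unadjusted p below 0.05.

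Hmgb1 (Entrez 15289, 149046702 to 149053057) lay 1.92 Mb from Kl. It encodes an abundant chromatin protein that acts as a danger signal when it leaves the cell. Its level was 62.1 to 75.5 CPM in WT (median 72.9) and 52.9 to 65.0 CPM in KlHET (median 60.9), with 7 of 12 KlHET libraries below the WT range. The difference was -0.27 ± 0.05 on the log2 scale (limma adjusted p = 0.0224), the smallest in size of the 11, and -0.24 without KlHET replicates 7 and 9 (limma adjusted p = 0.0752). Other genes, among them Hmgb1 pseudogenes, share 21.6% of its stretches of read length, and with total-count scaling it did not pass (limma adjusted p = 0.152).

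Within 5 Mb of Kl, 6 of 38 tested genes (15.8%) had an unadjusted p below 0.05, against 9.42% on the rest of chromosome 5 and 10.5% on the other chromosomes. Besides Hmgb1 these were Flt1, the VEGF receptor 1 gene (log2 difference 0.34), Slc7a1 (0.17), Mtif3 (-0.20), Mtus2 (-0.17) and Pomp (-0.14), and none of these 5 passed the adjusted test. In the NMES brains, 4 of the 38 genes (10.5%) had an unadjusted p below 0.05, against 4.27% of all genes tested there. These were Hmgb1, Gm8615, Uspl1 and Pds5b, of which Hmgb1 alone was among the 6 of control brain.

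**Figure D2:**
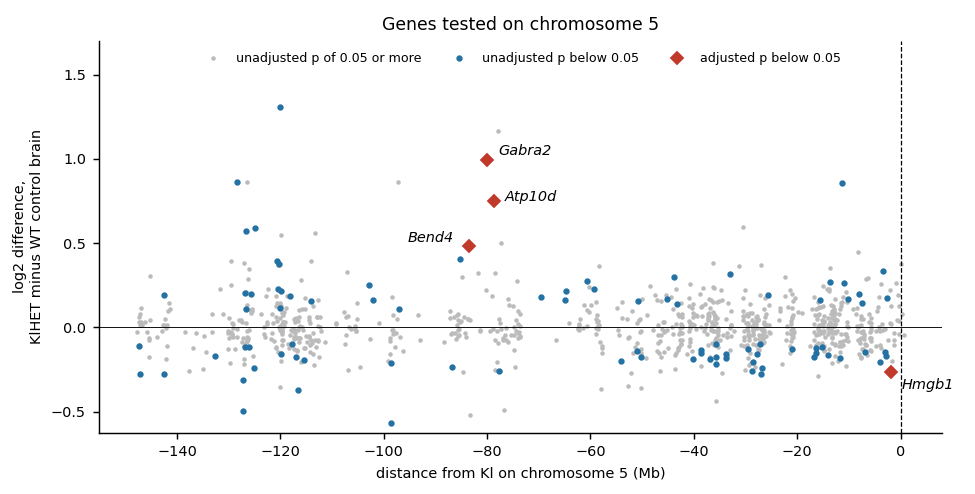
Log2 difference between KlHET and WT control brain of each tested gene on chromosome 5, against its distance from Kl in Mb (dashed line at 0). Diamonds are the 4 called genes, of which Gabra2, Atp10d and Bend4 lie 78.7 to 83.6 Mb away and Hmgb1 1.92 Mb away.

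The remaining called genes lay on chromosomes 10 and 15. Cfap54 (Entrez 380654, chromosome 10, 92775609 to 93083487) encodes a protein of the axoneme of motile cilia, the beating hairs of ependymal cells. It was 1.16 to 3.02 CPM in WT (median 2.24) and 2.31 to 14.7 CPM in KlHET (median 7.37), with every KlHET library except replicate 4 above the WT range. The log2 difference of 1.49 ± 0.27, or 2.81-fold, was the largest of the 11 (limma adjusted p = 0.0124). The libraries rich in choroid plexus, replicates 7 and 9, were also high in Cfap54 (11.6 and 14.7 CPM) and in the ependymal regulator Foxj1 (32.05 and 13.9 CPM, against 5.93 to 11.1 CPM in WT). Cfap54 was also high in replicate 6, at 11.03 CPM, where Foxj1 was 5.24 CPM, and Cfap54 passed without replicates 7 and 9.

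A930033H14Rik (Entrez 320700, chromosome 10, 69209762 to 69213098), a transcript known by its cDNA name that overlaps Rhobtb1, was 1.17 to 1.91 CPM in WT (median 1.55) and 1.85 to 7.80 CPM in KlHET (median 4.29). It rose by 1.14 ± 0.22 on the log2 scale (limma adjusted p = 0.019), and KlHET replicates 4, 5 and 12 were the lowest at 1.93, 2.47 and 1.85 CPM. Ptp4a3 (Entrez 19245, chromosome 15, 73723145 to 73758766), a protein tyrosine phosphatase gene, was 71.02 to 83.3 CPM in WT (median 75.9) and 42.2 to 69.5 CPM in KlHET (median 62.2). All 12 KlHET libraries lay below the WT range, with a log2 difference of -0.39 ± 0.08 (limma adjusted p = 0.0224). Within 1 Mb, 3 of 11 tested neighbours of Cfap54, 3 of 6 of A930033H14Rik and 3 of 16 of Ptp4a3 had an unadjusted p below 0.05. For Hmgb1 on chromosome 5 it was 2 of 13. The share over all genes was 10.4%, and none of these neighbours passed the adjusted test.

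The NMES mice share no animal with the control mice and gave a second reading of the genotype contrast under treatment. Both contrasts came from the same fit over all 36 brain libraries, so the NMES brains also set the spread by which the control calls were made. The overlap of calls is therefore not independent evidence. In NMES brain 15 of 15400 genes passed (0.0974%), 9 higher (0.0584%) and 6 lower (0.039%) in KlHET. Of the 11 genes called in control brain, 7 also passed in NMES brain, and all 11 had the same sign, against 59.1% of all genes. The 7 were 63.6% of the control calls and 46.7% of the NMES calls. Tmem267 was 22.4 to 44.9 CPM in WT and 14.9 to 24.0 CPM in KlHET (log2 difference -0.81 ± 0.15, limma adjusted p = 0.0173). Tmem181b-ps had a log2 difference of 1.42 ± 0.20 (limma adjusted p = 0.000605), with all 12 KlHET libraries above the WT range, as was the case for Dynlt1b (0.93 ± 0.17, limma adjusted p = 0.0127).

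Gabra2 in NMES brain was 30.0 to 35.9 CPM in WT and 30.5 to 78.6 CPM in KlHET, where replicates 1 and 3 lay inside the WT range (log2 difference 0.79 ± 0.17, limma adjusted p = 0.0483). Cfap54, A930033H14Rik and Tmem181c-ps passed too, with log2 differences of 1.27, 1.03 and 0.74. Ptp4a3 was lower in all 12 KlHET NMES brains than in any WT NMES brain but did not pass (log2 difference -0.34 ± 0.08, limma adjusted p = 0.092). The other 3 genes, all on chromosome 5, had smaller differences, 0.26 ± 0.14 for Atp10d, 0.13 ± 0.10 for Bend4 and -0.12 ± 0.05 for Hmgb1, and did not pass. No gene passed the test of the difference between the 2 genotype contrasts in limma (454 genes, 2.95%, at an unadjusted p below 0.05, and 0 with DESeq2, voom or edgeR's quasi-likelihood test). A different effect under NMES was thus not detected for these 3 either (limma adjusted p = 0.999 for each). Their unadjusted limma p for this difference was 0.0208 for Atp10d, 0.0152 for Bend4 and 0.0557 for Hmgb1.

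**Figure D3:**
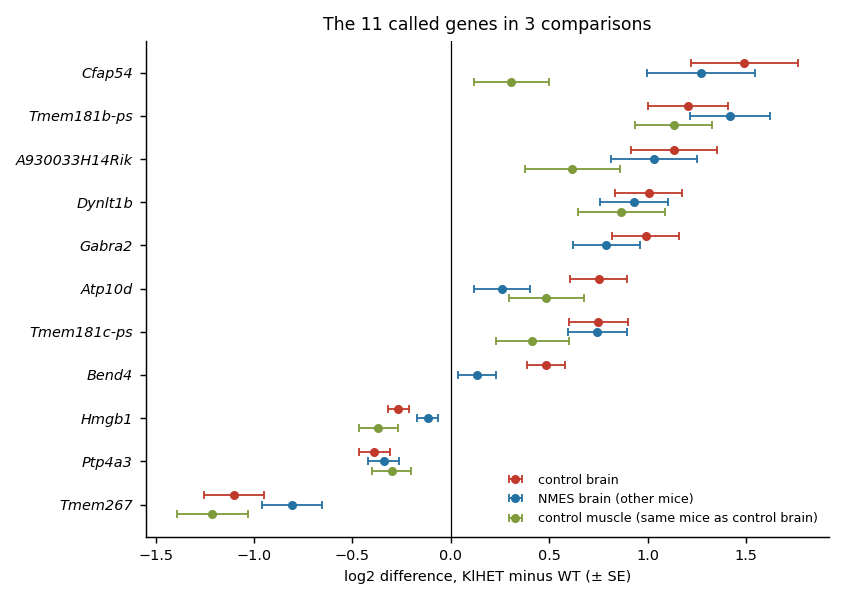
Log2 difference between KlHET and WT for the 11 called genes, with the SE, in control brain (red), in NMES brain (blue, other mice) and in control muscle (green, the same mice as control brain, for the 9 genes in the muscle table). All points lie on the same side of 0 for each gene, and the NMES points of Atp10d, Bend4 and Hmgb1 are nearer 0 than the control points.

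Muscle of the same control mice was measured in its own table, in which 810 of 13505 genes passed (6%), 350 higher (2.59%) and 460 lower (3.41%) in KlHET. With total-count scaling 853 passed, 751 higher and 102 lower, and the median log2 difference of all muscle genes was 0.085 in place of 0.016. Kl, Gabra2 and Bend4 were not analysed here in muscle. Of the other 9 genes called in brain, Tmem267, Tmem181b-ps, Dynlt1b and Hmgb1 passed in muscle as well, each with the sign seen in brain. Tmem267 was 22.2 to 37.2 CPM in WT muscle and 6.44 to 19.7 CPM in KlHET muscle, again without overlap (log2 difference -1.21 ± 0.18, limma adjusted p = 0.00117). Tmem181b-ps was 4.97 to 7.94 CPM in WT muscle and 8.49 to 23.5 CPM in KlHET muscle, also without overlap (1.13 ± 0.20, limma adjusted p = 0.00165). The log2 difference in muscle was 0.87 ± 0.22 for Dynlt1b (limma adjusted p = 0.0175) and -0.37 ± 0.10 for Hmgb1 (limma adjusted p = 0.0232). Cfap54, at 0.404 to 0.759 CPM in WT muscle and 0.298 to 1.65 CPM in KlHET muscle, did not pass (limma adjusted p = 0.336), nor did Atp10d (log2 difference 0.49), A930033H14Rik (0.62), Tmem181c-ps (0.42) and Ptp4a3 (-0.30). Muscle and brain of a mouse are not independent samples, so these values say that the difference was present in another tissue of the same animals.

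The neighbour Nnt, which did not pass in control brain, was 14.5 to 28.5 CPM in WT muscle and 33.9 to 99.7 CPM in KlHET muscle, without overlap (log2 difference 1.21 ± 0.30, limma adjusted p = 0.0151). In NMES brain its log2 difference was 0.52 ± 0.09 (limma adjusted p = 0.00884). Ccl28 also passed in muscle (-0.82 ± 0.17, limma adjusted p = 0.00647), and so did Zfp131 (-0.38 ± 0.11, limma adjusted p = 0.0334). Not every neighbour kept its sign. Nim1k was 2.37 to 3.24 CPM in WT muscle and 3.16 to 5.24 CPM in KlHET muscle, a log2 difference of 0.39 ± 0.15 that did not pass (limma adjusted p = 0.0929), against -0.35 in brain. In NMES brain the log2 difference was -0.029 ± 0.10 for Zfp131, 0.072 ± 0.041 for Paip1, -0.23 ± 0.076 for Nim1k and -0.69 ± 0.20 for Ccl28, and none of these passed.

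Below the threshold, genes were named by smallest p until each direction held 10, called genes included. Higher in KlHET were Erich5, a glutamate-rich protein gene on chromosome 15, and Abhd1, a hydrolase-fold gene on chromosome 5. Lower were Fcrl2, Nim1k, Zfp938, Sod3, Atrip, Zfp131 and Arfgap1. More lower genes are named here because fewer lower genes had passed, so their number says nothing about the balance of directions. None of them passed in control brain. Erich5 was at most 0.405 CPM in WT and 0.399 to 2.09 CPM in KlHET (log2 difference 1.03, limma adjusted p = 0.0557), and in NMES brain it passed (1.28 ± 0.22, limma adjusted p = 0.00806). Abhd1 was 0.0842 to 0.348 CPM in WT and 0.0526 to 2.59 CPM in KlHET (1.31, limma adjusted p = 0.0646). The Fc receptor-like gene Fcrl2 was 23.4 to 30.2 CPM in WT and 8.50 to 28.1 CPM in KlHET (-0.88, limma adjusted p = 0.0557). In 10 of 12 KlHET libraries Fcrl2 lay below the WT range, as in 10 of 12 in NMES brain (-0.61 ± 0.19, limma adjusted p = 0.571). It is not in the microglia and macrophage list read below. Sod3, the secreted superoxide dismutase, was 13.5 to 17.8 CPM in WT and 7.56 to 16.2 CPM in KlHET (-0.57, limma adjusted p = 0.0922).

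Some genes took separate levels among the KlHET mice. Wdfy1, an endosomal adaptor with WD repeats and a FYVE domain, and Hddc3, a metal-dependent phosphohydrolase gene, were singled out after their values were seen. Wdfy1 was 11.1 to 16.5 CPM in WT control brain and 12.8 to 85.4 CPM in KlHET control brain. KlHET replicates 2 and 5 lay at 13.7 and 12.8 CPM, 8 lay between 35.2 and 42.7 CPM, and replicates 4 and 7 were at 62.1 and 85.4 CPM. The log2 difference was 1.40 ± 0.34 in brain (limma adjusted p = 0.129) and 0.96 ± 0.25 in muscle (limma adjusted p = 0.0214). In muscle the same replicates 2 and 5 were the lowest KlHET mice (7.57 and 6.37 CPM) and the same replicates 4 and 7 the highest (26.3 and 27.2 CPM). Hddc3 was 7.97 to 11.7 CPM in WT control brain and 8.68 to 31.2 CPM in KlHET control brain, with replicates 4, 6 and 10 at 11.7, 9.02 and 8.68 CPM and the other 9 at 17.4 CPM or more (log2 difference 0.84 ± 0.22, limma adjusted p = 0.189). The same 3 mice were the lowest KlHET mice in muscle, at 6.10, 5.12 and 5.27 CPM, and were not the mice that were low in Wdfy1.

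**Figure D4:**
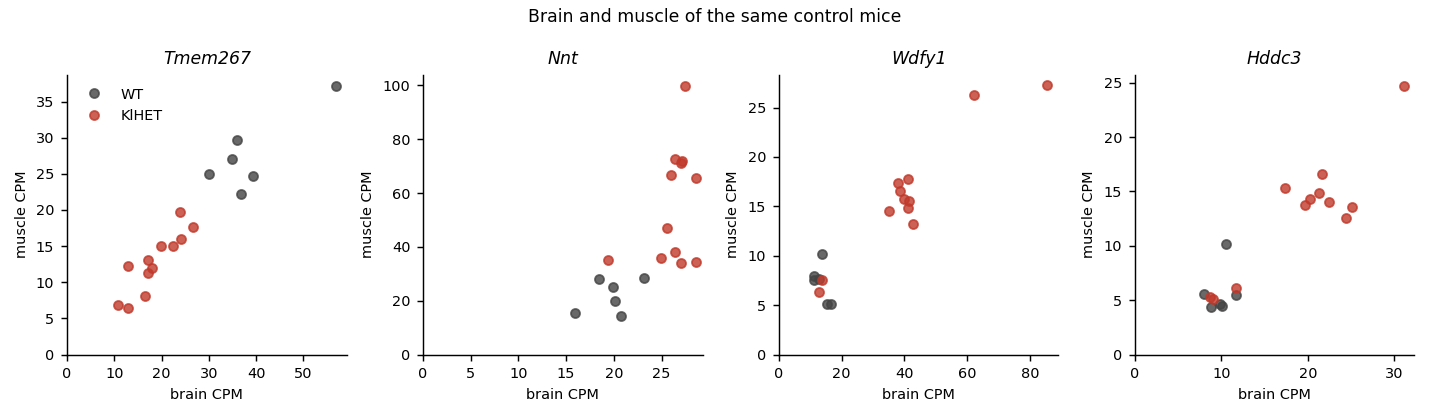
Brain against muscle CPM of the same control mice for Tmem267, Nnt, Wdfy1 and Hddc3, WT in grey (6 mice) and KlHET in red (12 mice). For Wdfy1 and for Hddc3, 2 KlHET mice lie inside the WT range in both tissues, and for Tmem267 and Nnt the groups do not overlap in muscle.

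Gene lists for the Klotho axis, brain cell types, brain regions and metabolic pathways were read by counts, beside a median log2 difference of -0.0055 over all genes and a share of 10.4% at an unadjusted p below 0.05. Over all genes 48.1% had a log2 difference above 0. Of 940 listed genes tested, 1 passed the adjusted test, Gabra2, which stands in 2 lists. Of 27 genes of the Klotho, FGF and vitamin D axis, none passed and 2 had an unadjusted p below 0.05, with a median of -0.013. The most abundant member, Sod2, the mitochondrial superoxide dismutase, had medians of 174 CPM in WT and 181 CPM in KlHET. Among 42 GABA and glutamate receptor genes, Gabra2 passed, 6 were at an unadjusted p below 0.05 and the median was 0.043. The most abundant members had small differences that did not pass, such as Gabbr1 (0.046 ± 0.046), Gria2 (-0.056 ± 0.10), Gria1 (-0.012 ± 0.066) and Grin1 (-0.10 ± 0.069).

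A list of 15 tested genes known to differ in coding sequence or copy number between laboratory strains, or among C57BL/6 lines, held 1 called gene, Gabra2, and 5 genes at an unadjusted p below 0.05 (33.3%). The list was written with earlier results of these data known, so its count is no independent evidence. Of 57 nuclear genes of oxidative phosphorylation, none passed. However, 54 of them were below 0, 17 had an unadjusted p below 0.05 (29.8%), all lower in KlHET, and the median was -0.11 in control brain and -0.022 in NMES brain. Among the most abundant members, Cox4i1 had medians of 457 and 424 CPM (-0.21 ± 0.068, limma adjusted p = 0.31) and Sdha 454 and 456 CPM (-0.018 ± 0.042). Of 76 cytosolic ribosomal protein genes none passed, 64 were below 0 and 14 had an unadjusted p below 0.05, 13 of them lower (median -0.12). The list of 13 mitochondrially encoded genes had a median of 0.0058 in control brain and -0.32 in NMES brain, and WT replicate 1 was low in it. Without this library the median in control brain was -0.30 and all 13 genes were below 0. Of these, 8 had an unadjusted p below 0.05, all lower (61.5%, beside 6.99% of all genes), and none passed. The same library had the highest ribosomal protein score of the 18 control libraries, 0.282 against 0.147 in the next WT library and 0.215 in the highest KlHET library. Without it, 9 ribosomal protein genes had an unadjusted p below 0.05, 8 of them lower (median -0.078), as did 9 oxidative phosphorylation genes, all lower (15.8%, median -0.094), beside 6.99% of all genes.

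Immune lists held no called gene, and their shares at an unadjusted p below 0.05 were 3.85 to 13.3%, beside 10.4% of all genes. Of 26 microglia and macrophage genes, none passed and 1 was at an unadjusted p below 0.05, Olfml3, which was lower in KlHET. The median of the list was 0.0012 in control brain and -0.16 in NMES brain. Csf1r, the receptor through which microglia receive survival signals, had medians of 86.1 CPM in WT and 93.2 CPM in KlHET and did not pass (limma adjusted p = 0.765). The type I interferon list (26 genes, 3 at an unadjusted p below 0.05, median 0.069), the antigen presentation list (23 genes, 3, median -0.059), the complement list (15 genes, 2, median -0.029) and the disease-associated microglia list (17 genes, 1, median -0.051) held no called gene.

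No marker of a brain region passed, and the ranges of their scores overlapped between the genotypes. Their median log2 differences were 0.39 for 24 striatal medium spiny neuron genes, 0.85 for 20 hypothalamic genes, 0.37 for 16 thalamus and midbrain genes, 0.48 for 24 choroid plexus genes, 0.27 for 20 ependymal genes and -0.27 for 17 olfactory bulb and immature neuron genes. Without KlHET replicates 7 and 9 they were 0.48 for the striatal, 0.73 for the hypothalamic, 0.19 for the thalamus and midbrain, 0.19 for the choroid plexus (23 genes tested), 0.043 for the ependymal and -0.069 for the olfactory bulb list. Without WT control replicate 1 they were 0.48 for the striatal, 0.79 for the hypothalamic and 0.31 for the thalamus and midbrain list. In that fit they were 0.44 for the choroid plexus, 0.30 for the ependymal and -0.45 for the olfactory bulb list. Of the hypothalamic genes 5 had an unadjusted p below 0.05 (25%), all higher in KlHET, and 1 did without replicates 7 and 9 (5%, beside 7.70% of all genes). These 5 were Magel2, Calcr, Asb4, Nkx2-1 and Baiap3, and the median of the list in NMES brain was -0.13. The median score over the striatal list was -0.19 in WT, with a range from -2.17 to 1.17, and 0.32 in KlHET, with a range from -1.84 to 0.94. The median hypothalamic score was -0.68 in WT and -0.33 in KlHET, where 4 libraries reached 1.265 to 2.414. Fitted together with the striatal and excitatory cortical scores, 14 genes passed, among them 9 of the 11, while Hmgb1 and Bend4 each had an adjusted p of 0.0504 in limma. Fitted together with the choroid plexus score, 16 genes passed, among them all 11.

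**Figure D5:**
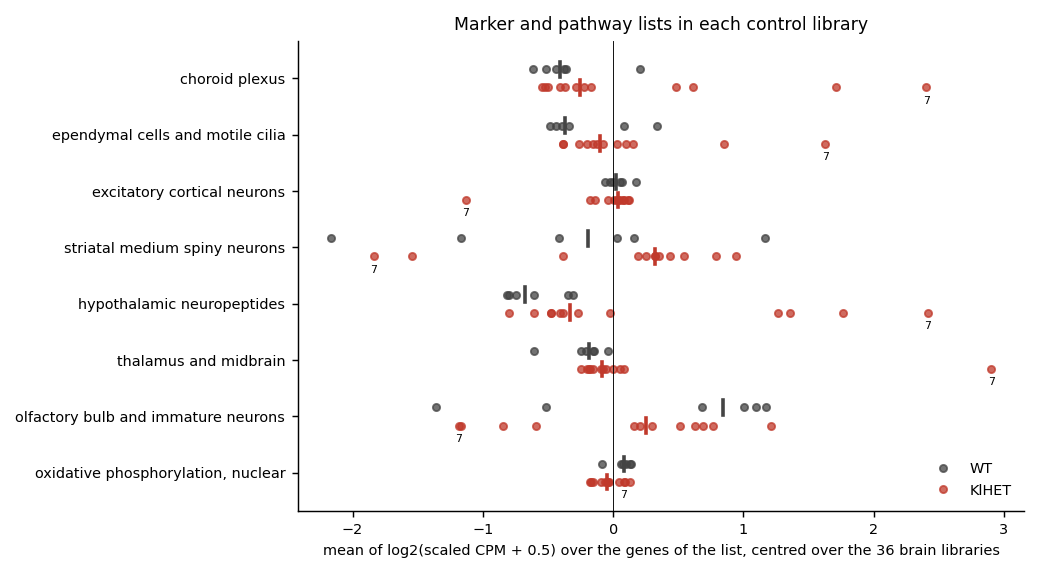
Score of 8 gene lists in each control brain library, WT in grey and KlHET in red, with thick ticks at the group medians. A score is the mean log2(scaled CPM + 0.5) over the list, each gene centred over the 36 brain libraries, and the number 7 marks KlHET control replicate 7, which had the highest thalamus and midbrain score (2.90) and the lowest excitatory cortical score (-1.13).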

How the data were processed

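Total RNA libraries were sequenced as 150-base read pairs. Per the methods and labels, the authors used Rsubread (mm10), org.Mm.eg.db and edgeR 4.0.16, and deposited 1 table per tissue with the CPM of each gene. The deposited tables also hold the authors' average log2 CPM, which belongs to no sample and was not used. The sources used here do not say whether counting used strand. All deposited CPM values were whole multiples of 1 read (tolerance 1e-06), so reads were recovered from them. Genes were kept with filterByExpr (minimum count 10), CPM were scaled by TMM factors (0.962 to 1.07), and log2(scaled CPM + 0.5) was fitted with limma 3.58.1 (edgeR 4.0.16, R 4.3.3), trend and robust, with a mean for each of 4 groups over all 36 brain libraries (36 muscle libraries in a separate fit). P-values are 2-sided with Benjamini-Hochberg adjustment over all genes tested. DESeq2 1.42.0, voom and edgeR's quasi-likelihood test on recovered reads were alternatives. Where nothing else is said, ± is the SE of the fit. Fold changes on the log2(CPM + 0.5) scale understate the change of genes with low CPM. Positions are from RefSeq (GRCm38.p6) and were found for 15281 of 15400 genes. In simulated data for this contrast (15394 genes), 50 were changed at each of 1.25-fold, 1.5-fold and 2-fold, and 49 at 4-fold. The fit called 44% of those changed 1.25-fold, 76% at 1.5-fold, 90% at 2-fold and 95.9% at 4-fold, with 7 false calls. What share the fit finds in the measured control brains, where 11 genes passed, was not tested.

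The genes named are Kl, all genes past an adjusted p of 0.05, the next by p up to 10 in each direction, and up to 4 abundant members of a list. Predicted genes are named only where they pass, except for the neighbours of Tmem267 and for Gm8615 near Kl. Neighbours of called genes, Wdfy1 and Hddc3 were named after their values were seen. Nnt, Wdfy1, Hddc3, Ide, Entpd4, Ccl28 and Flt1 were added outside the rule by p. These added genes are counted in the alternative values for named genes and in the sets checked for an outlying WT library. The comparison, the members and the gene lists were chosen with earlier results of these data known. Replicates are mice numbered in accession order. Brain and muscle of a mouse were matched by the animal code in the labels (36 mice). Sequences are from GENCODE M21 transcripts. Alternatives are described with the closing observations.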

Additional observations from a re-analysis of the deposited data

Results flagged for a closer look

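Of 68 sets of values over the 6 WT control brains, 11 had 1 library whose gap to its nearest neighbour, divided by the range, was above Dixon's 95% critical value of 0.625, and chance gives such a gap in about 1 in 20 sets. Values over the 12 KlHET brains were not examined in this way. The sets share libraries and genes and are not independent.

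WT control replicate 1 gave 5 of them. Its mitochondrial share of reads was 1.669%, against 4.316% in the nearest library, and its score over the mitochondrially encoded genes was -1.598. Its scores were -0.604 for the thalamus and midbrain list and -0.2168 for the hippocampus list, and 0.1242 for heat shock proteins and chaperones. Without this library 8 genes passed in control brain.

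WT control replicate 2 had the highest Tmem267, 56.84 CPM against 39.37 in the nearest library, and the lowest score for nuclear oxidative phosphorylation genes, -0.08784. WT control replicate 4 had an Entpd4 level of 29.61 CPM, below 34.53 in the nearest library, and a choroid plexus score of 0.2042. The blood cell score of WT control replicate 5 was -1.566, and the mural cell score of WT control replicate 6 was 0.1175.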

How the results depend on the processing

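No paired analysis was possible because the replicate numbers were given in accession order and pair no mice between genotypes. In control brain 11 genes passed, and the count was 56 with DESeq2 (37 higher, 19 lower), 67 with voom and library quality weights (30 higher, 37 lower) and 3 when only the 2 control groups were fitted (2 higher, 1 lower), where 8 of the 11 did not pass. It was 20, all higher, in the control libraries with Xist higher and 0 in those with Y-linked genes higher. These splits hold fewer libraries, and 0 of the 11 genes passed in either, with adjusted p of 0.0881 or more. With 1 library left out in turn it ranged from 4 to 19. In NMES brain 15 passed, and 32 with DESeq2 (21 higher, 11 lower) and 34 with voom (14 higher, 20 lower). The Kl difference of 0.38 was 0.14 to 0.58 with 1 library left out. It turned to -0.074 without KlHET control replicates 7 and 9, to -0.27 in a fit that held the choroid plexus score, to -0.14 with striatal and excitatory cortical scores and to -0.021 with voom, and passed in none of these. None of the 11 called genes changed direction under the alternatives tried, and 4 of 11 stayed past 0.05 with each library left out. Of 978 alternative values for named genes, 860 kept direction and side of the threshold, 67 lost the threshold, 47 gained it and 4 reversed, all of them Kl. Leaving out replicates 7 and 9, the list medians without these or without WT control replicate 1, the splits by Xist and Y-linked genes and all muscle alternatives were chosen after seeing the data. Genotype and animal code letter cannot be told apart, and Kl rested on as few as 29 reads in a library.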

Other observations

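Over all 24 KlHET mice, control and NMES together, Wdfy1 and Hddc3 took separate levels, read as runs of sorted values with gaps above 1.3-fold. Wdfy1 in brain lay at 12.1 to 13.7 CPM in 5 mice, 33.1 to 44.4 CPM in 14 mice and 62.0 to 85.4 CPM in 5 mice, while the 12 WT mice lay at 11.1 to 16.5 CPM. The 5 mice of the lowest level were also the lowest in muscle, at 6.37 to 8.66 CPM, and the other 19 lay at 13.2 to 30.9 CPM. Hddc3 in brain lay at 8.68 to 11.7 CPM in 7 mice and 17.4 to 31.2 CPM in 17, and the same 7 mice formed the lower level in muscle, at 4.17 to 7.02 CPM against 12.5 to 24.7 CPM. These levels were noticed in the values and carry no test.

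Lists not described above held no called gene in control brain. Beside their counts, 48.1% of all genes were above 0 and 10.4% had an unadjusted p below 0.05. All 9 oligodendrocyte precursor genes tested were above 0, 3 of them at an unadjusted p below 0.05, with a median log2 difference of 0.17 in control brain and -0.05 in NMES brain. Of 23 endothelial genes, 22 were above 0 and 3 had an unadjusted p below 0.05 (median 0.14). Of 22 myelin genes, 20 were above 0 and 1 had an unadjusted p below 0.05 (median 0.18, and 0.048 without KlHET replicates 7 and 9). Of 34 proteasome genes, 26 were below 0 and 7 had an unadjusted p below 0.05, all lower (median -0.065). WT control replicate 1, the library with the lowest mitochondrial share, had the highest proteasome score of the 18, 0.201 against 0.115 or less in the others, and without it none of the 34 genes had an unadjusted p below 0.05 and the median was -0.042.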
